A study of Danio rerio with 16 samples.

Results

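Wild-type zebrafish embryos carrying polystyrene particles were compared with embryos given the vehicle alone, 1 day post injection (1 dpi). The comparison held the libraries titled A, B and C of the particle group and the libraries titled A and B of the mock group, 5 of the 16 libraries of the series. Particle embryos had received 1 nl of red fluorescent polystyrene particles, 5 mg/ml and 700 nm by the labels, suspended in polyvinylpyrrolidone (PVP), into the yolk at 2 days post fertilization (dpf). Mock embryos had received PVP alone by the same route, so both groups shared the puncture and the vehicle, and 3 libraries of non-injected control embryos had neither. All of these 1 dpi embryos were frozen whole at 3 dpf. The 3 dpi libraries, used below for the spread and for a comparison, came from embryos of 5 dpf. The labels give 10 embryos per treatment group and do not say whether each library pooled them. The libraries of 1 dpi held between 9112785 and 19101682 counts, and the 5 libraries compared between 12514570 and 16288917. The labels call the libraries biological replicas without naming clutches, so p-values measure a spread between libraries. In the main fit that spread was estimated from all 16 libraries, those of non-injected embryos and of 3 dpi included. Levels are given as CPM, the count scaled to a common library size, and differences as log2 values of particle over mock.

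At 3 dpf the zebrafish embryo still lives on its yolk, which the yolk syncytial layer breaks down and exports as lipoproteins while the liver, gut and exocrine pancreas take up their functions. Macrophages and neutrophils are already present and take up foreign particles, and lysosomal enzymes degrade what they engulf. Immediate early genes are transcription factors and feedback regulators switched on within minutes of neuronal activity, growth factor signalling, handling or injury, without new protein synthesis. Complement, clotting factors and acute phase proteins are made mainly by the liver and respond to infection and tissue damage in adult fish and mammals.

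The whole-embryo label was met by the defining markers. Of 42 markers listed for liver, pancreas, gut, lens, retina, muscle, heart, skin, nervous system, blood, vessels, leukocytes and islets, 40 were matched and all 40 had counts in each library of 1 dpi. The libraries stood apart in a way the groups did not give. The C libraries carry another header word than A and B, no mock library is titled C, and the header of particle C reads 70 nm where the labels read 700 nm, so its particle size is uncertain. Deviations of particle C from its group mean went with those of control C across 23623 genes (r = 0.745, log-CPM, no test). Particle A stood near both mock libraries, and particle C and control libraries below them, in most liver, gut and pancreas markers described below. The pancreas marker ela2l was an exception. How far the header difference or these tissue levels enter the other results was not tested. Values by library or for the A and B libraries alone are therefore given beside the pooled value for the main lists.

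No gene passed the test between particle and mock embryos at 1 dpi. Of 23623 genes, edgeR's quasi-likelihood test called 0 higher and 0 lower (0.0% each) at an adjusted p of 0.05. At an unadjusted p under 0.05 stood 249 higher genes (1.05%) and 289 lower genes (1.22%). DESeq2 called 4 genes higher (0.0169%) and 0 lower, namely EGR4, npas4a, plin2 and CCBL2 (2 of 5). With the A and B libraries alone edgeR called 3 genes higher (0.0129%) and 0 lower, namely npas4a, fosab and EGR4. Every particle library lay above both mock libraries in 13.1% of genes tested and below both in 13.2%, and the median log2 value of all genes was 0.01. Mock against control embryos gave 0 calls either way (0.0% each). These shares are the background for the gene groups that follow.

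The lowest p values belonged to the immediate early transcription factors EGR4 and npas4a, both with higher levels in particle embryos, and fosab followed after plin2. Of 29 such factors tested, 8 stood higher at an unadjusted p under 0.05 and 0 lower (1.05% and 1.22% of all genes). Every particle library lay above both mock libraries in 11 and below both in 3 (13.1% and 13.2% of all genes). The median log2 value of the 29 was 0.13, well under the values of the genes named here. None passed the adjusted test in edgeR. The 8 factors include both fosab identifiers, which may be 1 signal. The list was chosen with earlier results of these data known, so these shares are a description only.

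EGR4 (ENSDARG00000077799, chromosome 23), a zinc-finger factor of the early growth response family, had 7.65, 10.6 and 9.13 CPM in particle libraries A, B and C, against 1.73 and 2.33 CPM in mock A and B. The control libraries held 3.41, 3.21 and 5.31 CPM, between both groups. The log2 value was 2.17 (SE 0.31, edgeR adjusted p = 0.142), with DESeq2 at an adjusted p of 3.98e-06, the A and B libraries alone at 0.0377, and a range over the alternatives of 3.98e-06 to 1. The groups did not overlap, which was a condition for naming genes by smallest p. The lowest particle library exceeded the highest control library.

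The gene npas4a (ENSDARG00000055752, chromosome 14) codes for a factor that neurons induce on electrical activity. It had 20.9, 21.9 and 15.2 CPM in particle libraries A, B and C, against 5.04 and 5.12 CPM in mock A and B. Control libraries held 3.41, 2.38 and 4.64 CPM, all below the mock libraries. The log2 value was 1.93 (SE 0.352, edgeR adjusted p = 0.924), with 0.000748 by DESeq2 and 0.00111 in the A and B libraries alone, and a range of 0.000748 to 1. Against control embryos npas4a rose by a log2 value of 2.44 (edgeR adjusted p = 0.0431) and was the one gene called higher in that comparison (0.00423% of genes tested, 0.0% lower). That call was lost when any 1 particle, mock or control library of 1 dpi was left out (adjusted p between 0.0504 and 0.412). It was also lost by limma-voom (0.449) and in a fit of the 1 dpi libraries alone (0.335), in a range of 9.39e-10 to 0.449 and log2 values of 2.25 to 2.87.

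The AP-1 subunit gene fosab (ENSDARG00000031683, chromosome 20) had 12.3, 12.4 and 12.3 CPM with particles, against 4.49 and 4.36 CPM with mock injection and 3.64, 3.52 and 6.48 CPM without injection. Its log2 value was 1.48 (SE 0.325), with an edgeR adjusted p of 0.924 over all libraries and 0.0223 in the A and B libraries alone, in a range of 0.0223 to 1. A second identifier with the same symbol and chromosome, ENSDARG00000097234, had 3.72, 3.5 and 3.76 CPM with particles against 1.52 and 1.88 CPM with mock injection. How reads shared by both identifiers were divided is not given in the sources used here, so the pair may be one signal.

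The other members with an unadjusted p under 0.05 had smaller or less well counted differences. The immediate early response gene ier2 had 12.9, 11.7 and 12.6 CPM with particles, against 7.6 and 5.27 CPM with mock injection, and control libraries held 5.66, 4.86 and 7.55 CPM. For junbb, a JUN family partner in AP-1, particle libraries held 19.4, 21.8 and 27.6 CPM and mock libraries 13.3 and 11 CPM, while control libraries at 15, 11.2 and 20.8 CPM overlapped both. For egr1, the family's best known member, the particle libraries held 94.2, 92.7 and 49.3 CPM, the mock libraries 45.2 and 43.9 CPM and the control libraries 44.3, 39.5 and 31.9 CPM, so A and B stood near each other and C close to mock. Of the identifiers of egr2a, ENSDARG00000098502 lay at 0.413, 0.673 and 0.609 CPM with particles against 0.138 and 0.15 CPM with mock injection, a level of few counts. The egr2a identifier ENSDARG00000044098 overlapped between the groups (log2 0.29). The log2 values of ier2, junbb, egr1 and the first egr2a identifier were 0.94, 0.92, 0.82 and 1.91, each with an edgeR adjusted p of 0.924.

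Many members of the class did not stand apart. The AP-1 genes jun (log2 −0.11), fosl2 (−0.27) and jund (−0.34), the orphan receptor genes nr4a1 (−0.06) and nr4a3 (−0.07), and egr3 (−0.04) had log2 values near or below 0. Among 16 feedback and synaptic genes the median was −0.10, 7 lay above 0, and only btg2, an antiproliferative gene, had an unadjusted p under 0.05. It had 45.7, 50.9 and 79.2 CPM with particles, against 32.7 and 29.3 CPM with mock injection, and control C also held 75.2 CPM. The phosphatase gene dusp1 (log2 0.18) and the neurotrophin gene bdnf (0.08) overlapped between the groups. Over the whole list of 45 genes the median was 0.06, with 26 above 0. The clock gene per1a, which early signals also induce, had 7.23, 5.39 and 6.09 CPM with particles, against 3.31 and 4.06 CPM with mock injection, with control libraries at 3.8, 3.21 and 2.19 CPM. Its partner gene per2 ran the other way, with 14.1, 14.7 and 6.2 CPM with particles, against 26.4 and 22 CPM with mock injection, where control A and B lay at 23.2 and 22.6 CPM and control C at 8.06 CPM.

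**Figure D1:**
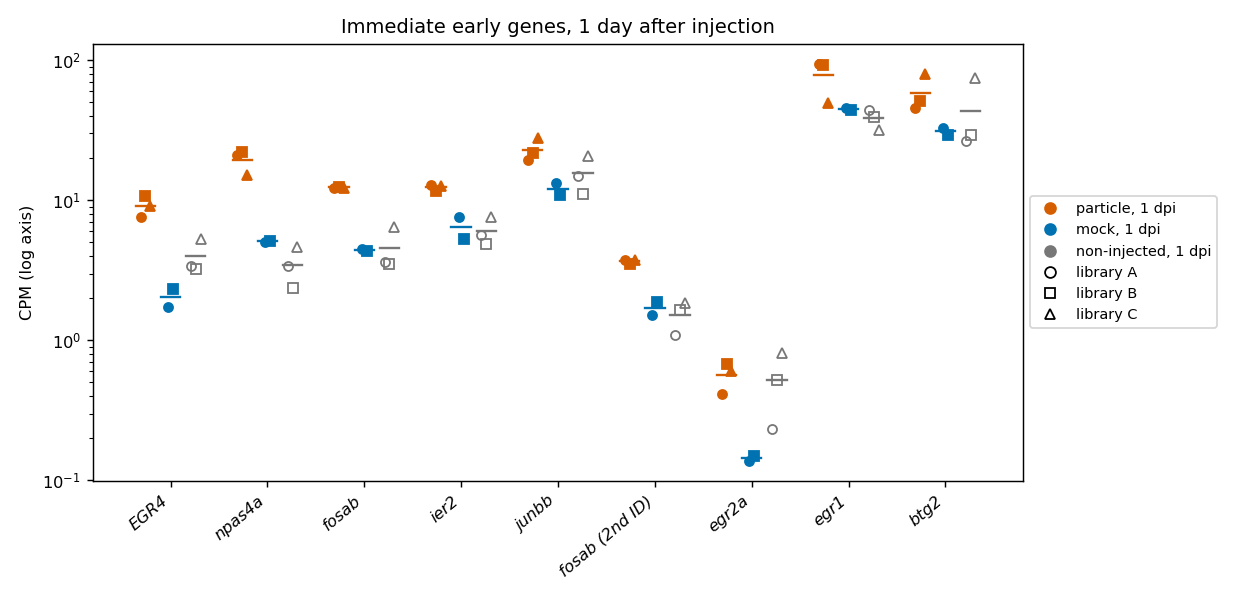
Levels of the 9 entries of the immediate early list with an unadjusted p under 0.05, as CPM on a log axis, for particle, mock and non-injected libraries of 1 dpi. Points are libraries, marked by their letter, and bars are group means. Particle points lie above both mock points for every entry shown, as the choice by p favours, and EGR4, npas4a, both fosab identifiers, ier2 and egr1 also lie above all non-injected points.

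Outside this class the lowest p belonged to plin2 (ENSDARG00000042332, chromosome 15), whose protein coats lipid droplets. It had 12.1, 13.6 and 17.3 CPM with particles, against 2.69 and 3.69 CPM with mock injection, a log2 value of 2.17 (SE 0.47, edgeR adjusted p = 0.924, 0.0166 by DESeq2, range 0.0166 to 1). Control embryos held 6.98, 8.07 and 21.6 CPM, so the mock libraries were the low ones and particle libraries lay within the control range. Other storage genes did not follow plin2. Of 11 droplet and storage genes tested, 3 had a log2 value above 0, with dgat2, a triglyceride synthase gene, at −0.67, and the adipocyte-type coat gene PLIN4 at 0.12.

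The same layout, with mock low and control at the particle level, held for several of the other genes with small p. The transaminase gene ccbl2 (chromosome 6) had 15.4, 18.4 and 9.52 CPM with particles, against 4.49 and 2.71 CPM with mock injection and 32.4, 14.8 and 9.23 CPM without injection. A second transaminase entry, CCBL2 (2 of 5), was among the DESeq2 calls with a log2 value of 2.23 there (adjusted p = 0.0294, range 0.0294 to 1). It was named after its values were seen, and both entries may share reads. In znf997, fam117bb and C12H16orf52, with log2 values of 1.01, 0.71 and 0.90, every control library also lay above both mock libraries. In sst1.1, the gene of the hormone somatostatin, and cyp17a2, a steroid hydroxylase gene, every control library lay below every particle library. For sst1.1 the values were 8.13, 7.2 and 7.42 CPM with particles, against 4.21 and 4.96 CPM with mock injection. For cyp17a2 they were 20.7, 26.9 and 21.7 CPM with particles, against 13.7 and 15.3 CPM with mock injection.

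Among the lower genes with the smallest p, 2 are known from the inner ear. The otolith matrix gene otomp (ENSDARG00000040306, chromosome 2) had 2.89, 2.56 and 3.49 CPM with particles, against 12.9 and 8.73 CPM with mock injection, a log2 value of −1.86 (SE 0.499, edgeR adjusted p = 0.924). Controls held 4.65, 2.27 and 1.74 CPM, so the mock libraries were the high ones. For tectb, which codes for beta-tectorin of the gelatinous membrane over the hair cells, the levels were 3.51, 2.56 and 2.82 CPM with particles, against 5.25 and 5.57 CPM with mock injection and 4.57, 4.24 and 3.16 CPM without injection. The groups did not overlap in either gene, as the rule that chose them required.

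The other lower genes have varied roles. The phosphatase-family gene mtmr8 had the lowest p of the 12, with 6.96, 7.74 and 6.86 CPM in particle embryos, against 14.2 and 12.1 CPM in mock embryos (log2 −0.87, SE 0.208). The dehydrogenase gene dhrs2 stood at 8.88, 12.1 and 9.19 CPM with particles, against 15.1 and 21.5 CPM with mock injection. The glucose-6-phosphate transporter gene slc37a4b stood at 51.2, 48.2 and 33.3 CPM with particles, against 68.4 and 69 CPM with mock injection. The insulin receptor gene insra stood at 36.4, 28.5 and 29 CPM with particles, against 53.1 and 47.1 CPM with mock injection. Of these 4 genes only insra had control libraries reaching into the mock range, at 51.5, 39.9 and 32.5 CPM. The glycosylation gene galnt12 (log2 −1.11), the zinc-finger gene glis2b (−0.95) and the GTPase exchange factor gene dock11 (−0.67) had every control library below both mock libraries as well. So did 2 genes of low level with roles in immunity in mammals. For tmem173, which codes for the DNA-sensing adaptor STING, particle libraries held 0.964, 1.14 and 0.609 CPM and mock libraries 1.8 and 1.88 CPM. For klhl6, particle libraries held 0.827, 0.337 and 0.443 CPM and mock libraries 1.86 and 1.88 CPM. Comparisons of particle with mock and of mock with control share the mock libraries, so the control levels are given here as values and not as a second line of evidence.

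**Figure D2:**
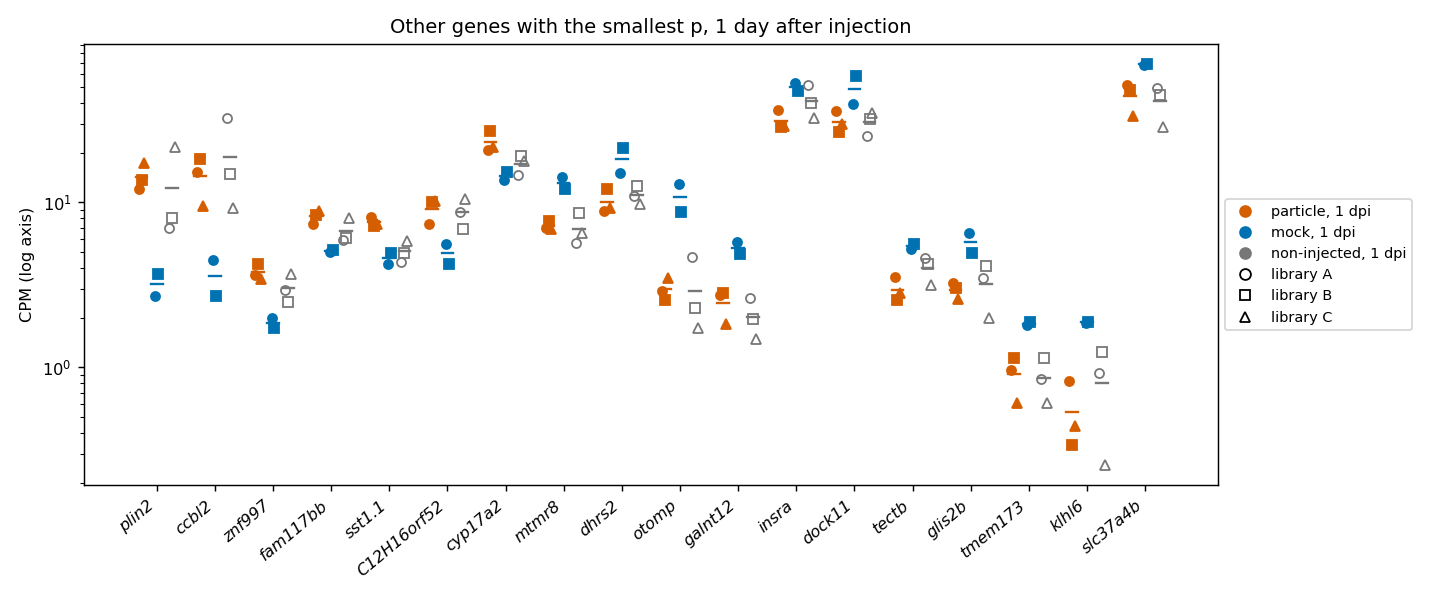
Levels of the other genes with the smallest p (crp, which has a library at 0, is not drawn), as CPM on a log axis, in particle, mock and non-injected libraries of 1 dpi, with points for libraries, letters by marker and bars for group means. In plin2, ccbl2 and otomp the mock libraries stand apart from both other groups, for instance 2.69 and 3.69 CPM of plin2 with mock injection.

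Genes of the liver, gut and exocrine pancreas were lower in the pooled comparison, but the particle libraries disagreed with each other. Of 34 secreted liver proteins tested, 3 had a log2 value above 0, the median was −0.99, and 7 had every particle library below both mock libraries (13.2% of all genes). None passed the test, and 1 (serping1) had an unadjusted p under 0.05. Against the mock mean the median was −0.02 in particle A, −1.34 in particle B and −1.90 in particle C, and it was −1.66, −1.99 and −2.08 in control A, B and C. With the A and B libraries alone it was −0.50, and without particle A it was −2.05, and particle A alone thus moved the value by over 1.5 times. In RNA of whole embryos fewer liver cells and less RNA per liver cell cannot be told apart.

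The liver markers show the split in full. The liver fatty acid carrier gene fabp10a had 28.8, 3.3 and 0.941 CPM in particle A, B and C, against 36.7 and 48.5 CPM in mock A and B and 5.89, 0.517 and 0.204 CPM in control A, B and C. The transferrin gene tfa had 111, 27.5 and 5.76 CPM with particles, against 58.7 and 106 CPM with mock injection and 7.21, 3.72 and 1.94 CPM without injection. Particle A thus lay near the mock level for both genes, and particle C near the control level. The fibrinogen gene fgb had 18.5, 4.17 and 1.49 CPM with particles, against 18.8 and 19.2 CPM with mock injection.

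The gut markers fabp2 and vil1 and the pancreas marker cpa5 had a similar layout, and the pancreas marker ela2l did not. The intestinal fatty acid carrier gene fabp2 had 97.2, 6.33 and 1.66 CPM with particles, against 57.4 and 80 CPM with mock injection and 6.74, 2.69 and 1.38 CPM without injection. The microvillus gene vil1 had 58.1, 15.3 and 2.55 CPM with particles, against 44.6 and 42.8 CPM with mock injection. The carboxypeptidase gene cpa5 of the pancreas had 27.3, 1.82 and 0.387 CPM with particles, against 15.1 and 7.67 CPM with mock injection. The elastase gene ela2l had 12.1, 4.78 and 15.4 CPM with particles, against 11.4 and 4.29 CPM with mock injection and 6.82, 5.79 and 35.9 CPM without injection, so particle C and control C were the high libraries. The pancreatic list, 28 genes tested with a median of −0.56, had medians of 0.48, −1.48 and −1.88 in particle A, B and C over the mock mean. Its summed level was 323, 36.3 and 46.2 CPM with particles, 273 and 143 CPM with mock injection and 84.3, 33.0 and 66.0 CPM without injection. The intestinal list, 41 genes tested with a median of −0.45, had medians of 0.39, −0.71 and −1.66 in particle A, B and C. Without the C libraries the medians were −0.15 for the pancreas and −0.16 for the intestine. In each of these lists 1 gene had every particle library below both mock libraries, a share under the background. The direction of the pancreatic median turned when mock A was left out (0.08).

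**Figure D3:**
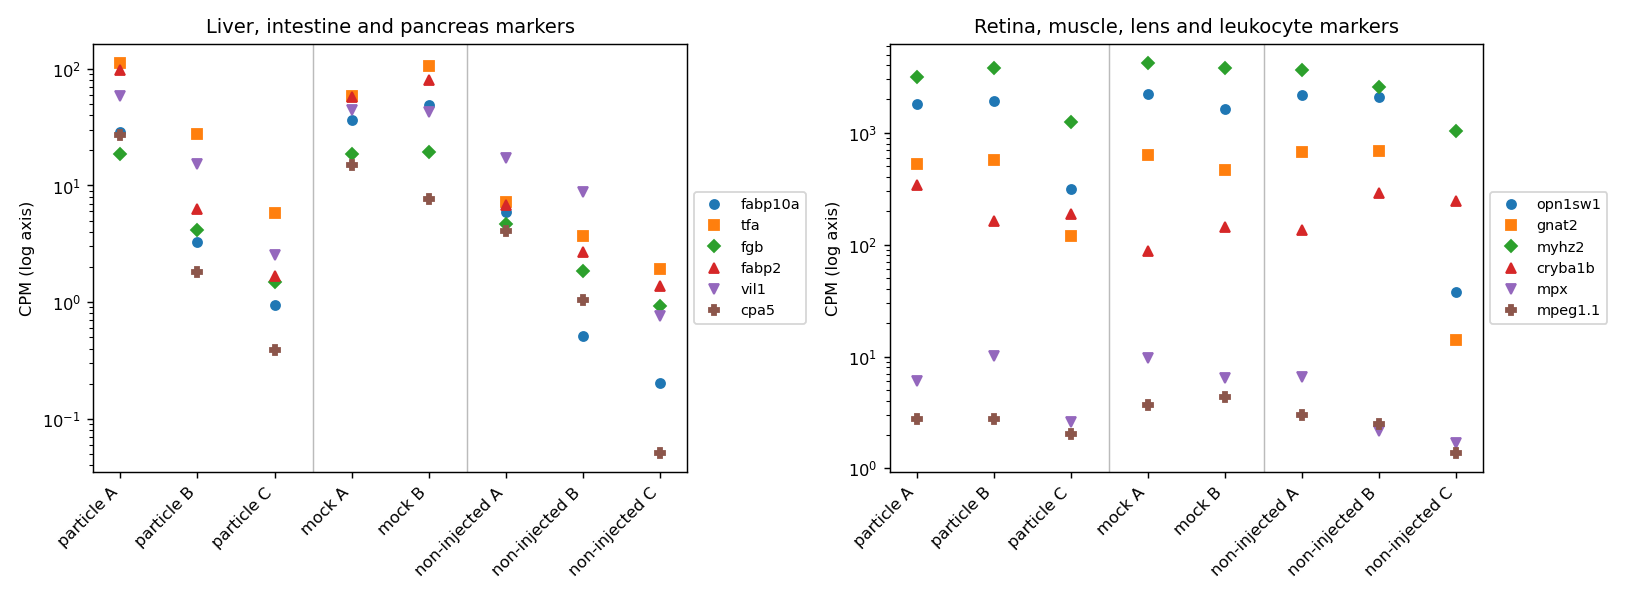
Levels of tissue markers in each library of 1 dpi, as CPM on a log axis, one symbol per gene, with particle libraries left, mock in the middle and non-injected right. The liver, intestine and pancreas markers drawn (ela2l is not drawn) run from the mock level in particle A (fabp10a 28.8 CPM) down to the level of the non-injected libraries in particle C (0.941 CPM), and the retina markers are low in both C libraries.

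Complement, clotting and acute phase genes had a layout by library like that of the liver list. Of 35 complement genes tested, which tag and lyse microbes, 6 had a log2 value above 0, and the median was −0.69. The central component gene c3a.1 had 13, 5.18 and 1.55 CPM with particles, against 11.2 and 15.8 CPM with mock injection and 4.11, 4.03 and 2.5 CPM without injection (log2 −1.04, SE 0.716, adjusted p = 0.924). The pore component gene c9 had 13.4, 5.66 and 0.83 CPM with particles, against 10.1 and 15.7 CPM with mock injection, and the factor B gene cfb had 5.1, 1.55 and 0.775 CPM with particles, against 6.77 and 7.82 CPM with mock injection. In c3a.1 and c9 particle A lay within the mock range, and only cfb had every particle library below both mock libraries, which 7 of the 35 genes did (13.2% in the background). In the A and B libraries alone the complement median was −0.43. Of 27 genes of coagulation and fibrinolysis, 3 had a log2 value above 0 and the median was −0.86, with 0.01, −1.28 and −1.63 in particle A, B and C and −0.45 without the C libraries.

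Among acute phase genes, crp and hamp are given in full, and their groups did not overlap. Of the other genes tested, crp3 (log2 −1.997), hp (−1.545), stat3 (−0.37) and il6st (−0.29) also had every particle library below both mock libraries. In the background 13.2% of genes did. The C-reactive protein gene crp (chromosome 24) had 1.31, 0.337 and 0 CPM with particles, against 5.87 and 3.91 CPM with mock injection, with controls at 0.698, 0.414 and 0 CPM (log2 −3.19, SE 1.09, unadjusted p = 0.0115). In particle C the gene was not detected at this depth. The iron hormone gene hamp had 1.86, 0.539 and 0.553 CPM with particles, against 2.9 and 3.46 CPM with mock injection (log2 −1.70, unadjusted p = 0.0707). In crp2 (log2 0.06) the groups overlapped, and the serum amyloid gene saa lay under 1 CPM in every library of 1 dpi. The 19 acute phase genes had a median of −0.39, with 3 above 0, and −0.25 in the A and B libraries alone.

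Lipoprotein genes were the lipid genes with the lowest medians. Of 19 assembly and apolipoprotein genes tested, 1 had a log2 value above 0, and the median was −1.01. In 9 of them every particle library lay below both mock libraries (13.2% in the background). By library the median was −0.20, −1.33 and −3.58 in particle A, B and C, and −2.86, −3.71 and −3.36 in the control libraries. The main protein of high-density particles, apoa1b, singled out here for its high level after its values were seen, had 407, 116 and 16.7 CPM with particles, against 444 and 493 CPM with mock injection and 54.4, 9.93 and 8.83 CPM without injection. The scaffold gene apobb.1 had 84.2, 44.8 and 4.37 CPM with particles, against 110 and 68.4 CPM with mock injection. In the A and B libraries alone the median was −0.52. The 28 cholesterol synthesis genes, targets of sterol sensing, had a median of −0.34, and −0.23 in the A and B libraries alone. Of these genes 6 lay above 0, and 8 lay below both mock libraries in every particle library (13.2% in the background). The 23 lipases, receptors and carriers had a median of −0.08, and the whole lipid list of 53 genes −0.33.

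Lens genes ran the other way. Of 64 lens genes tested 61 had a log2 value above 0, and the median was 0.86. In 44 every particle library lay above both mock libraries (13.1% in the background). At an unadjusted p under 0.05 in edgeR, 13 were higher and 1 lower (1.05% and 1.22% in the background). None passed the adjusted test. The median over the mock mean was 1.06, 0.71 and 0.55 in particle A, B and C, −0.39 and 0.31 in mock A and B, and 0.33, 1.07 and 0.77 in control A, B and C. Without the C libraries the median was 0.97. The median of particle over control was 0.03 and that of mock over control −0.81, so particle and control libraries shared a range and mock A was the lowest library. The summed level was 21730, 16680 and 14310 CPM with particles, against 7161 and 12620 CPM with mock injection and 12870, 21180 and 17530 CPM without injection. Control A thus lay beside mock B.

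By class, 50 crystallins, the soluble proteins of the lens, had a median of 0.89, and 14 membrane and cytoskeleton genes of lens fibres had 0.74 with all 14 above 0. The crystallin gene cryba1b had 345, 162 and 187 CPM with particles, against 87.6 and 143 CPM with mock injection. The water channel gene mipb of the fibre membrane had 59.8, 38.4 and 29.3 CPM with particles, against 19.4 and 22.7 CPM with mock injection. The membrane gene lim2.4 had 47, 34.4 and 50.8 CPM with particles, against 20 and 28.2 CPM with mock injection, and foxe3, a regulator of the lens epithelium, 0.895, 1.01 and 1.05 CPM with particles, against 0.345 and 0.15 CPM with mock injection. In these 4 genes every particle library lay above both mock libraries. The small heat shock gene cryabb, also active outside the lens, had a log2 value of −1.24. Reads from the many closely similar crygm2d copies may have been split between them, so these counts may exceed the number of separate signals.

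Phagocyte markers had slightly lower values with particles, without passing the test. Of 31 macrophage markers tested 2 had a log2 value above 0, 13 had every particle library below both mock libraries (13.2% in the background), 2 were lower at an unadjusted p under 0.05 (1.22% in the background), and the median was −0.49. By library the median was −0.23, −0.34 and −0.69 in particle A, B and C and −0.25, −0.42 and −0.69 in control A, B and C, so each letter lay at about the same place with particles and without injection. In the A and B libraries alone the median was −0.25. The growth factor receptor gene csf1ra had 3.72, 4.31 and 2.38 CPM with particles, against 8.36 and 6.24 CPM with mock injection and 5.04, 5.07 and 2.96 CPM without injection (log2 −1.08, SE 0.384, unadjusted p = 0.0139). The lysosomal protease gene ctssb.2 had 2.34, 3.57 and 2.27 CPM with particles, against 6.01 and 5.72 CPM with mock injection, with controls lower still at 0.775, 1.86 and 0.663 CPM. The pore gene mpeg1.1 had 2.75, 2.76 and 2.05 CPM with particles, against 3.66 and 4.36 CPM with mock injection (log2 −0.67, SE 0.406), and mfap4 had 6.82, 9.69 and 7.08 CPM with particles, against 9.53 and 8.8 CPM with mock injection. The groups overlapped for mfap4 and not for the other 3 genes. The summed macrophage level was 189, 178 and 139 CPM with particles, against 238 and 219 CPM with mock injection and 184, 161 and 134 CPM without injection.

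Lysosomal enzymes and membrane genes differed in their layout. Of 26 enzyme genes 1 had a log2 value above 0 and 14 had every particle library below both mock libraries (13.2% in the background). Their median was −0.32, while 20 membrane, pump and regulator genes had a median of −0.03. The cathepsin genes ctsz and ctsk had log2 values of −0.67 and −0.64 (unadjusted p = 0.0746 and 0.076). None of the 46 genes, whose median was −0.21 over all libraries and −0.11 in the A and B libraries alone, had an unadjusted p under 0.05.

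Neutrophil markers and inflammatory signals did not pass the test in either direction. Of 19 neutrophil markers 6 had a log2 value above 0, with a median of −0.14, and in the A and B libraries alone it was −0.001. The peroxidase gene mpx had 6.06, 10 and 2.6 CPM with particles, against 9.67 and 6.47 CPM with mock injection (log2 −0.38, SE 0.594), and the lysozyme gene lyz 16.9, 30.8 and 12.2 CPM with particles, against 19.1 and 15.9 CPM with mock injection. Of 39 matched cytokine and chemokine genes only 22 passed the filter on low counts, 5 of them with a log2 value above 0 (median −0.26). The interleukin gene il1b had 0.895, 0.808 and 0.996 CPM with particles, against 1.86 and 1.35 CPM with mock injection and 0.698, 0.827 and 0.969 CPM without injection (log2 −0.83, SE 0.698, adjusted p = 0.924). The groups did not overlap, and the level rests on few counts. The chemokine gene ccl38.6, at 0.689, 0.673 and 0.609 CPM with particles, against 0.414 and 0.15 CPM with mock injection, was the only one of the 22 with an unadjusted p under 0.05. The prostaglandin synthase gene ptgs2a had 9.71, 11.2 and 9.3 CPM with particles, against 16.2 and 9.63 CPM with mock injection and 6.28, 5.58 and 5.87 CPM without injection.

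**Figure D4:**
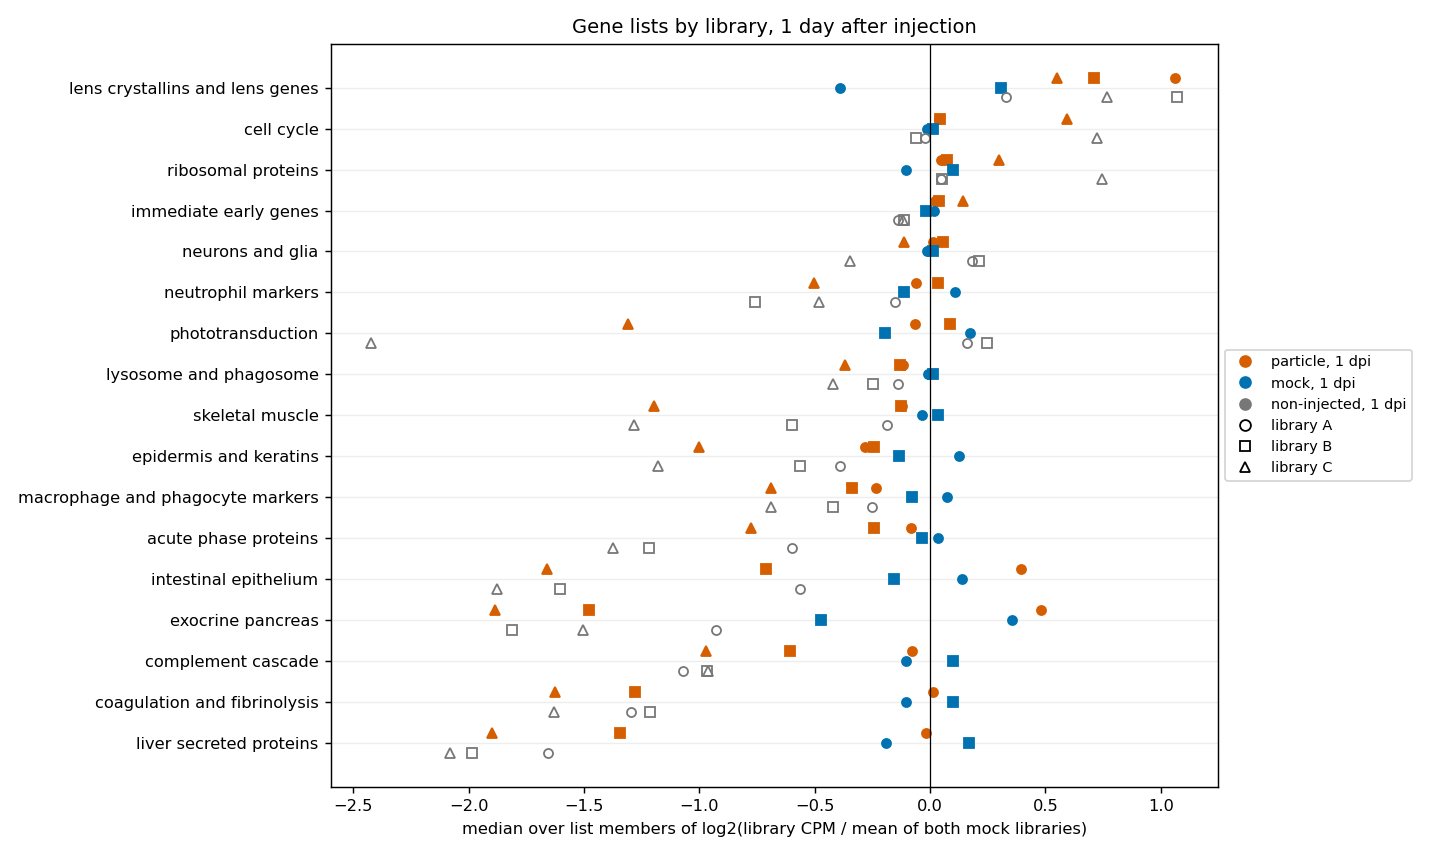
Median over list members of the log2 ratio of each library's CPM to the mean of both mock libraries, for 17 gene lists, with particle, mock and non-injected libraries of 1 dpi in separate lines and letters by marker. In the liver list particle A (−0.02) lies with the mock libraries and particle B and C (−1.34 and −1.90) with the non-injected ones, while the retina, muscle and cell cycle lists set both C libraries apart.

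In the lists of skeletal muscle, retina, cell cycle and ribosome, particle C stood apart from particle A and B. Of 68 muscle genes 33 had every particle library below both mock libraries (13.2% in the background), and 3 had a log2 value above 0. The median was −0.44, but by library it was −0.12, −0.13 and −1.20 in particle A, B and C, and −1.28 in control C. The calcium release channel gene ryr1a had 35.06, 26 and 21.4 CPM with particles, against 52.3 and 39.6 CPM with mock injection (log2 −0.74, unadjusted p = 0.0196). The 50 phototransduction genes had a median of −0.29 with particle C at −1.31 and control C at −2.42, and in the A and B libraries alone the median was 0.01. The cone opsin gene opn1sw1 had 1800, 1905 and 313 CPM with particles, against 2233 and 1626 CPM with mock injection and 2169, 2088 and 37.4 CPM without injection. Of 42 cell cycle genes 41 had a log2 value above 0, with a median of 0.24, and the median was 0.04, 0.04 and 0.59 in particle A, B and C and 0.72 in control C. The 81 ribosomal protein genes had a median of 0.16, with 0.30 in particle C and 0.75 in control C. With the A and B libraries alone the medians of muscle, cell cycle and ribosomal genes were −0.17, 0.02 and 0.07.

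The skin list had lower medians in all particle libraries, though not every skin marker did. None of 37 epidermal genes had a log2 value above 0 and the median was −0.48, with −0.28, −0.24 and −1.002 in particle A, B and C and −0.39, −0.56 and −1.18 in control A, B and C. With the A and B libraries alone the median was −0.26. The keratin gene krt4 had 4083, 6928 and 3711 CPM with particles, against 5470 and 5269 CPM with mock injection, and krt5 had 1053, 1621 and 763 CPM with particles, against 1441 and 1390 CPM with mock injection, so particle B was the highest of these libraries for both. The keratin gene krt17 had 305, 545 and 205 CPM with particles, against 668 and 637 CPM with mock injection and 694, 816 and 322 CPM without injection (log2 −0.89, unadjusted p = 0.0424). Of 37 wound repair and matrix genes 2 had a log2 value above 0. In 15 every particle library lay below both mock libraries (13.2% in the background). At an unadjusted p under 0.05 stood 4, all lower (1.22% in the background). The median was −0.21, with −0.12, −0.28 and −0.62 in particle A, B and C. Without the C libraries the wound repair median was −0.09. The fibronectin gene fn1a had 43.2, 33.8 and 24.2 CPM with particles, against 56.6 and 45.7 CPM with mock injection, with controls at 34.4, 21.2 and 27.3 CPM.

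No gene of the stress pathway lists passed the test. The 52 chaperone and unfolded protein genes had a median of 0.03 and the 31 genes of p53 and apoptosis 0.01. The cell cycle inhibitor gene cdkn1a, a p53 target, had 4.2, 3.3 and 3.15 CPM with particles, against 1.52 and 2.18 CPM with mock injection and 2.64, 2.07 and 1.33 CPM without injection. The 33 antioxidant genes under Nrf2 had a median of −0.21, with catalase (cat) at 54.2, 40.1 and 38.2 CPM with particles, against 55.6 and 60.6 CPM with mock injection. The xenobiotic response gene cyp1a, target of the aryl hydrocarbon receptor, had 7.03, 2.76 and 0.775 CPM with particles, against 4.83 and 5.19 CPM with mock injection, with controls at 3.49, 1.14 and 4.75 CPM, and the groups overlapped. Its list of 34 genes had a median of −0.36, with 0.09, −0.22 and −1.06 in particle A, B and C. The 27 hypoxia and glycolysis genes had a median of −0.15, the 30 genes of the glucocorticoid response −0.08 and the 20 interferon genes tested 0.05. The glucocorticoid median was 0.02 in the A and B libraries alone, and the interferon median −0.15 in particle C over the mock mean. Of the interferon genes, tlr3 (log2 −1.12) and irf9 (−0.59) were lower at an unadjusted edgeR p under 0.05 (1.22% in the background), and none was higher.

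The remaining lists had medians between −0.23 and 0.30. The 58 genes of neurons and glia had −0.01, with 27 above 0, and the 35 clock genes −0.03. The 24 erythroid genes had −0.10, the 31 endothelial genes −0.16, the 33 cartilage and bone genes −0.19 and the 18 heart genes −0.23. The heart median was above 0 in the A and B libraries alone (0.11), without particle B (0.05) and in particle A over the mock mean (0.50). Neuron, clock, erythroid and endothelial medians also changed sign in some settings. The 16 islet genes had 0.30 in the pooled fit, while the medians by library were 0.23, −0.20 and −0.34 in particle A, B and C, so the sign depended on the library.

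The particle and mock difference was set beside that at 3 dpi, in other libraries from embryos of 5 dpf. The mock libraries of 3 dpi had the lowest TMM scaling factors of the series, 0.694 for A and 0.886 for B. The header of particle C at 3 dpi also reads 70 nm. How far these points enter the 3 dpi values was not tested. At 3 dpi edgeR called 1249 genes higher (5.29%) and 803 lower (3.4%). The change of the difference from 1 to 3 dpi was called for 1 gene (0.00423%), EGR4. That count depended on the setting, with 1703 genes by DESeq2, 0 by limma-voom, 2587 in the A and B libraries alone, 2636 with the replicate block, and 0 to 2735 when 1 library was left out (2735 without mock B and 679 without particle C at 3 dpi). At 3 dpi EGR4 was lower in particle than in mock embryos, with 39, 29.7 and 49.9 CPM with particles, against 109 and 73.8 CPM with mock injection (log2 −1.21, edgeR adjusted p = 0.0174). The change was −3.38 on the log2 scale (adjusted p = 0.0152). It lost its call without particle A or mock A at 3 dpi, without particle B, mock A or mock B at 1 dpi (adjusted p between 0.0599 and 0.214) and by limma-voom (0.0691), in a range of 1.73e-10 to 0.214.

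The other early genes with small p had negative log2 values at 3 dpi, and their change did not pass the test in edgeR over all libraries. For each of npas4a, fosab, ier2 and junbb the change passed in 5 of 16 alternatives, namely DESeq2, the A and B libraries alone, the replicate block, and without particle C or mock B at 3 dpi. The adjusted p ranged from 0.000558 to 0.231 for npas4a, 0.00133 to 0.231 for fosab, 0.0032 to 0.245 for ier2 and 0.00255 to 0.24 for junbb. For npas4a the 3 dpi levels were 143, 116 and 82.9 CPM with particles, against 154 and 159 CPM with mock injection (log2 −0.46, adjusted p = 0.354, adjusted p of the change 0.0578). For fosab they were 78.2, 61.5 and 70.7 CPM with particles, against 114 and 100.4 CPM with mock injection (log2 −0.61), for ier2 the log2 value was −0.72 and for junbb −0.77. Both sets of levels were far above those of 1 dpi. The hydroxylase gene cyp17a2 was lower in particle than in mock embryos of 3 dpi, with a log2 value of −0.94 (adjusted p = 0.0156). Of the 12 higher genes with the smallest p at 1 dpi, 3 kept their sign at 3 dpi, with plin2 at 0.75, ccbl2 at 0.24 and fam117bb at 0.21. The share of all genes tested that kept their sign was not determined.

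Of the 12 lower genes 2 kept their sign, dhrs2 (−0.33) and insra (−0.03). The ear gene otomp had 3.95, 4.73 and 2.46 CPM with particles at 3 dpi, against 0.218 and 1.69 CPM with mock injection (log2 1.99, adjusted p = 0.0647). Both galnt12 and glis2b were higher in particle than in mock embryos of 3 dpi, by log2 values of 2.05 (adjusted p = 0.0174) and 1.72 (adjusted p = 0.0238), and the change from 1 dpi had an adjusted p of 0.0524 and 0.0542. For the liver list the median was 1.16 at 3 dpi and −0.99 at 1 dpi, for the pancreas 2.28 and −0.56, and for ribosomal proteins −0.87 and 0.16. Since the 24 genes were chosen by their values at 1 dpi, those values are a description only. Without the share over all genes, the counts of kept signs show no trait particular to these genes.

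**Figure D5:**
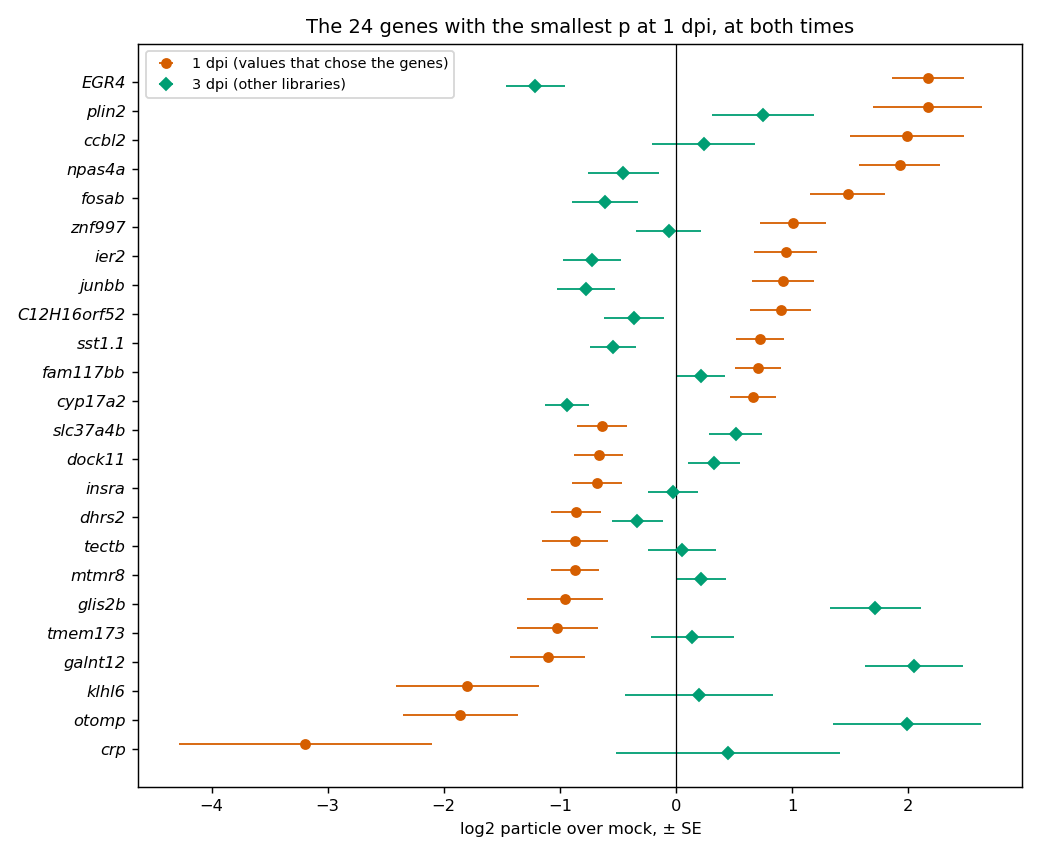
Log2 values of particle over mock with their SE for the 12 higher and 12 lower genes with the smallest p at 1 dpi, at 1 dpi (circles) and at 3 dpi (diamonds, other libraries). The early genes drawn (EGR4, npas4a, fosab, ier2 and junbb) lie right of 0 at 1 dpi, as their choice fixed. They lie left of 0 at 3 dpi, with EGR4 at 2.17 and −1.21.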

How the data were processed

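Each of the 16 deposited tables holds 1 library, with raw whole-number read counts per gene that the authors made. Their unit is taken to be the estimated count, which the authors made from reads before the tables were deposited, and no rounding was applied. This unit is an assumption, since every gene value is a whole number and only a size factor below the genes has decimals. Bowtie2, SAMtools, DESeq and GRCz10 are named in the submitters' processing notes. For the counter, annotation release, strand setting and shared reads the sources used here give nothing. The size factor and a blank line, 2 lines per table, were left out, which left 31388 genes. Titles gave groups and letters. The header of particle B at 1 dpi names A, and a label of control C at 1 dpi reads replica 1.

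The fits used edgeR 4.0.16 under R 4.3.3, with DESeq2 1.42.0 and limma 3.58.1 for alternatives. Figures were made with matplotlib 3.10.9. Genes were kept by filterByExpr (minimum count 10, minimum total 15), scaled by TMM and fitted by edgeR's robust quasi-likelihood model on 6 group means over all 16 libraries, which share 1 estimate of the spread since mock has 2 libraries at each time. P-values were adjusted by Benjamini-Hochberg over 23623 genes at a threshold of 0.05. The SE is the log2 value divided by the square root of the F statistic. Ratios by library used CPM plus 0.5. The fitting code was tested on simulated counts with planted differences, independent libraries and the same dispersion for all genes. Those counts held no shift shared by the C libraries, so the test does not show how the fit behaves with such a shift. Within groups, chi-square divided by its degrees of freedom was 6.34 to 105 for pairs of libraries, so none repeats another.

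Letters were not taken to pair particle with mock libraries, since their differences of A and B correlated at 0.026. Particle and control libraries of the same letter at 1 dpi correlated at 0.571 for A, 0.305 for B and 0.745 for C. Unlike letters gave 0.31 for control A with particle B and 0.224 for control B with particle A. Deviations within a group balance each other, so the values for A and B do not by themselves show a shared letter. The C libraries deviated together across groups (r between 0.321 and 0.745 over 6 pairs).

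The members and the 34 gene lists were chosen with earlier results of these data known, and 54 of 1373 list entries found no match. Named were the 12 genes each way with the smallest p among genes that average at least 1 CPM, carry a proper symbol and have non-overlapping groups, from each list up to 3 members by p, the defining tissue markers, and 11 genes named before. Other list members (such as apoa1b, apobb.1, jun or opn1sw1) were named after their values were seen. As alternatives served DESeq2, limma-voom, RLE size factors, fewer libraries, an unfiltered table, a replicate block and each library left out. Chromosomes are those named in the deposited data. No sequence of a gene or position within a chromosome is given, since no genome of this build was used here. The values of 1 gene are not reported here.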

Additional observations from a re-analysis of the deposited data

Results flagged for a closer look

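The particle and mock difference of EGR4 changed between the times by edgeR's test of the change in the main fit. That call was lost in several alternatives, as given above. The log2 value was 2.17 at 1 dpi and −1.21 at 3 dpi, a change of −3.38 (edgeR adjusted p = 0.0152). Over the other settings the change ran from −3.63 to −3.07, with adjusted p values between 1.73e-10 and 0.214. Groups of 2 or 3 libraries are too small for a search for single outlying libraries.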

How the results depend on the processing

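For particle against mock at 1 dpi edgeR called 0 genes, and DESeq2 called 4 and the A and B libraries alone 3. The count was 0 by limma-voom, with RLE size factors, without the filter on low counts, in the 1 dpi libraries alone, in the particle and mock libraries of 1 dpi alone, with the replicate block (0.0% either way), and each library left out (0 to 0). For the change of the difference from 1 to 3 dpi edgeR called 1 gene, DESeq2 1703, limma-voom 0, the A and B libraries alone 2587 and the replicate block 2636, and leaving out 1 library gave 0 to 2735, with 679 without particle C and 2735 without mock B at 3 dpi. The cause was not tested.

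For 45 named genes all 585 log2 values under the alternatives had the sign of the main fit. Of these values 7 passed the threshold, in EGR4, npas4a, fosab, plin2 and CCBL2 (2 of 5). Many of the genes were chosen by a small p or by non-overlapping groups, so the kept signs are no further evidence. Of 544 medians of the 34 lists under the alternatives and by particle library, 53 changed sign, in 19 lists. Liver, complement, lens, macrophage, muscle, skin, cell cycle and ribosomal medians kept theirs. A kept sign did not mean a kept size, since the liver and cell cycle medians came near 0 in some settings. For 18 of the lists, 25 of 288 such medians moved by over 1 SD between the particle libraries. Over these settings the median of all genes stayed between −0.01 and 0.02. Only 2 mock libraries limit what can be called, and genes under 1 CPM rest on few counts.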
